A study of Danio rerio with 4 samples.

Results

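The ribosomal proteins of the small cytosolic subunit were followed as mRNA through 4 zebrafish ovary libraries. Members were taken by gene symbol from a fixed list of 30 names, with case ignored and a final paralog letter optional. The list matched 28 names in 29 rows of the tables, out of 49610 rows in all. The names rpsa and rps4x had no row with their symbol, and their closest rows, RPSA2 and RPS4Y2, are given apart. Of the 29 rows, 28 had a mean of at least 1 FPKM (sequenced fragments relative to transcript length and to the fragment total of the library, a unit inferred from the values since no header names it) over the 4 libraries and were set beside the 13859 loci that passed the same filter. The remaining row is the second one of a member with 2 rows and was below 1 FPKM in every library. Gene symbols are spelled as the table of identifiers gives them, many of them in the capitals used for human genes.

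Adult wild-type female zebrafish of the AB strain, 5 months of age, were either kept as controls or exposed for 30 days to dibutyl phthalate (DBP), to diisobutyl phthalate (DiBP), or to both together (called the combined library). The phthalates are plasticisers, and the pair are isomers with straight and branched butyl chains. Ovarian RNA of each of the 4 groups was sequenced as 1 library, so every difference given here is between libraries, with no replicate check, no error and no test. No source used here gave the doses, the number of fish behind a library or whether fish were pooled. The value columns for the DiBP and combined libraries are headed by codes that do not appear in the sample names, and each was assigned by the sample under which its table was deposited, so every DiBP and combined value here rests on that record.

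The small subunit of the ribosome carries the messenger RNA and the decoding site, where codons are read. Its proteins are wrapped around the 18S ribosomal RNA and fall into a head, a body and a platform, and cells need them in equal numbers. Their mRNAs are among the most abundant of any growing cell. In the ovary the growing oocyte stores ribosomes on which the early embryo depends, and in vertebrates a terminal run of pyrimidines at the 5′ end of these mRNAs ties their translation to growth signals.

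Small-subunit mRNAs were most abundant in the DiBP library and least abundant in the combined library. In the order control, DBP, DiBP and combined, the summed level of the 28 loci was 14827, 17249, 21318 and 12265 FPKM, which was 2.77, 3.01, 3.56 and 2.39% of all FPKM. The median locus was at 378, 460.3, 601 and 359 FPKM, where the median of all loci tested was at 8.16, 8.10, 7.67 and 7.80. On the sum and on the median, the combined library lay below the control and the single-compound libraries above it.

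Among themselves the members differed widely in level per length, although the subunit holds each protein once. In the control the lowest was RPS24 at 77.4 FPKM and the highest RPS2 at 1741 FPKM. The coefficient of variation over members was 72.4, 64.6, 66.6 and 65.1% in the same order of libraries. The ranking of members by level differed little between libraries, with a Spearman rho over the 28 loci from 0.929 (control and DiBP) to 0.989 (control and combined). These are descriptions across genes, which share each library and its depth. From its highest to its lowest library a member differed by 1.13-fold (rps27.2) to 2.58-fold (RPS25), with a median of 1.71-fold.

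**Figure D1:**
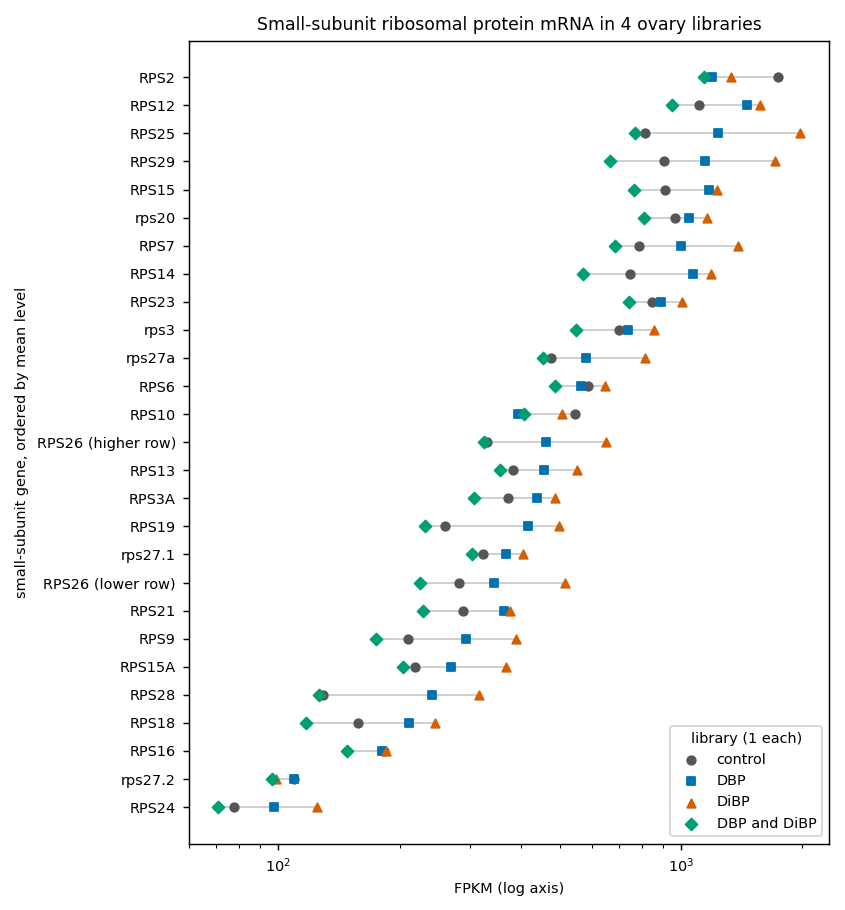
Level of 27 of the 28 small-subunit loci in FPKM (log axis), ordered by the mean, with 1 symbol per library and a grey line from the lowest to the highest library. The DiBP symbol lies furthest right at 24 of these loci and the combined symbol furthest left at 26.

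The same order of libraries recurred through the family. At 22 of 28 loci the level ran DiBP, DBP, control, combined from high to low, an order that 7.5% of all loci tested showed. The DiBP library was the highest at 25 loci (26.9% of all loci) and the combined library the lowest at 26 (27.9% of all loci). Among the loci outside the order were RPS2, RPS10, RPS6, RPS16 and rps27.2. Each step of the order was also common among the 46 large-subunit loci described below. There, 40 were higher with DiBP than with DBP, 34 higher with DBP than in the control and 43 lower in the combined library than in the control. These steps were thus not particular to the small subunit.

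In the DBP library 24 of 28 loci lay above the control, against 50.8% of all loci tested and 483 of the 771 at 100 FPKM or more. Of the members, 3 (rps3, RPS23 and rps27.2) changed sign under another scaling. The median log2 ratio, taken on the log2(FPKM + 1) scale throughout, was 0.32, beside 0.01 for all loci. Few members were far from the control: 3 of 28 were at least 1.5-fold higher, which is no larger a share than the 12.2% of all loci, and 0 were at least 1.5-fold lower (10.4% of all loci). With libraries scaled to equal summed FPKM, 1 member was at least 1.5-fold higher and 1 as far lower.

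In the DiBP library 25 of 28 loci lay above the control (45.6% of all loci and 467 of those 771 at 100 FPKM or more). Of the members, 2 (RPS6 and RPS16) changed sign under another scaling. The median log2 ratio was 0.58, beside -0.06 for all loci. At least 1.5-fold higher were 14 of 28 loci, against 15.7% of all loci, and 2 were at least 2-fold higher (7.25% of all loci). At least 1.5-fold lower were 0 loci (18.1% of all loci).

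In the combined library the sign was the other one. Here 27 of 28 loci lay below the control, against 59.9% of all loci and 573 of those 771 at 100 FPKM or more. However, 6 of the 28 (RPS25, RPS28, rps27a, rps27.1, RPS15A and the more abundant RPS26 row) changed sign under another scaling. The 28 loci had a median log2 ratio of -0.24 beside -0.08 for all loci. The members' differences were small, with 0 members at least 1.5-fold higher (7.78% of all loci) and 1, RPS2, at least 1.5-fold lower (10.0% of all loci). Under each of the 3 other scalings 0 members were that much lower, and scaling without the 50 most abundant loci gave a median of -0.13. These 3 comparisons share the control library, so its own peculiarities enter all of them.

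**Figure D2:**
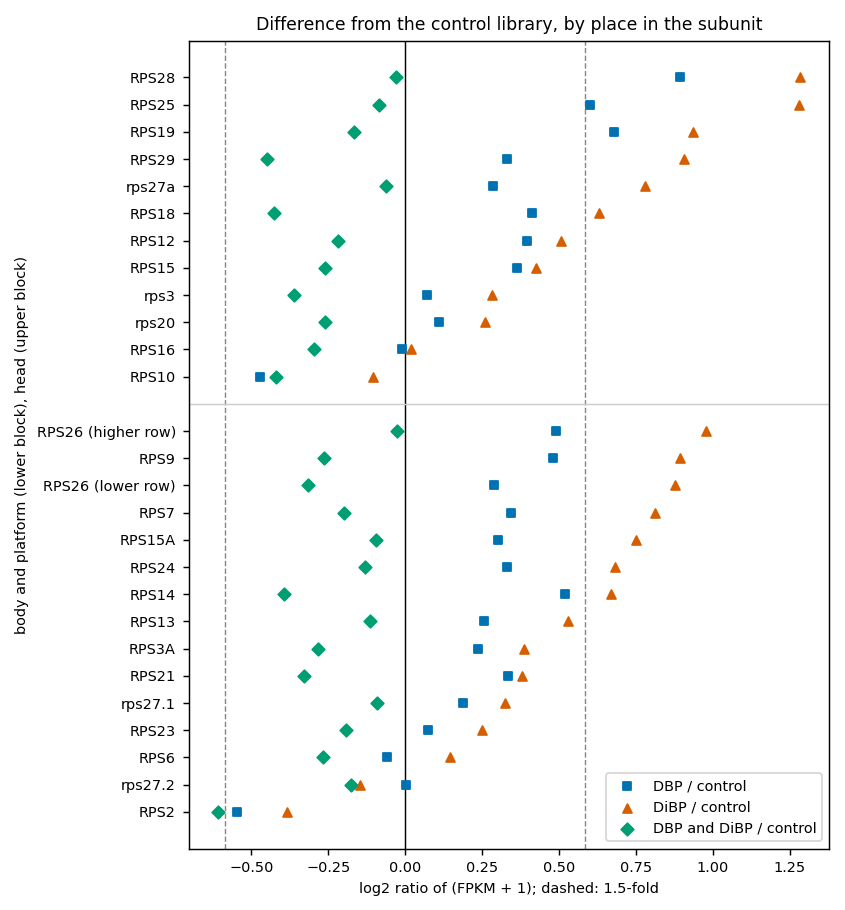
Log2 ratio of 27 of the 28 small-subunit loci to the control for the DBP, DiBP and combined libraries, with proteins of the subunit's head in the upper block and those of its body and platform in the lower. Dashed lines mark 1.5-fold: 13 DiBP symbols lie to the right of the upper line and 3 DBP symbols do, while 1 combined symbol, RPS2, lies left of the lower line.

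Proteins of the head, which include the mRNA entry side and the beak, are taken first. RPS28, a small protein beside the mRNA exit channel whose human gene is linked to Diamond-Blackfan anaemia, was at 129 FPKM in the control, 241 in the DBP, 316 in the DiBP and 126 in the combined library. The single-compound libraries were well above the control, and the combined library was level with it. The log2 ratios to the control, 0.89 with DBP and 1.29 with DiBP, were the highest of any member, and that of the combined library was -0.03. Of all loci tested, 5.88% had a higher ratio in the DBP library and 4.45% in the DiBP library.

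RPS25, which several viral internal ribosome entry sites need, was at 814 FPKM in the control, 1236 in the DBP, 1978 in the DiBP and 768 in the combined library. It was more than 2 times as high in the DiBP library as in the control, with a log2 ratio of 1.28, and 0.60 in the DBP library. RPS29, a zinc-binding protein of the head, was at 909 FPKM in the control, 1145 in the DBP, 1708 in the DiBP and 666 in the combined library. Its DiBP level was the highest of the 4 (log2 ratio 0.91) and its combined level the lowest (log2 ratio -0.45), so that these libraries lay 2.57-fold apart.

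RPS19, the protein most often mutated in human Diamond-Blackfan anaemia and needed for 18S rRNA maturation, was at 259 FPKM in the control, 416 in the DBP, 497 in the DiBP and 231 in the combined library. It lay above the control in both single-compound libraries (log2 ratios 0.68 and 0.94) and slightly below it in the combined one (-0.17). RPS18, which sits at the contact between head and large subunit, was at 158 FPKM in the control, 211 in the DBP, 245 in the DiBP and 117 in the combined library. Its combined level was among the lowest relative to the control (log2 ratio -0.43).

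The gene rps27a encodes its protein as a fusion with ubiquitin, which is cut off after translation. It was at 475 FPKM in the control, 579.6 in the DBP, 816 in the DiBP and 455 in the combined library, with log2 ratios of 0.29, 0.78 and -0.06. The polyubiquitin gene ubc, which encodes no ribosomal protein, was at 739, 739, 677 and 648 FPKM in the same order of libraries. The fusion gene was thus highest in the DiBP library, where ubc was below its control level.

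Not every head protein was far from the control. RPS12, with the highest mean level of the head, was at 1106 FPKM in the control, 1456 in the DBP, 1573 in the DiBP and 949.7 in the combined library. RPS16, which reaches with its tail towards the tRNA, was at 183 FPKM in the control, 181 in the DBP, 185 in the DiBP and 148 in the combined library, and its first 3 values were nearly equal. RPS10, at the mRNA entry side and, in human cells, a target of ubiquitin when ribosomes collide, was at 546 FPKM in the control, 394 in the DBP, 507 in the DiBP and 408 in the combined library. It was highest in the control, with log2 ratios of -0.47 in the DBP, -0.11 in the DiBP and -0.42 in the combined library.

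The 12 head loci had a median log2 ratio to the control of 0.35 with DBP, 0.57 with DiBP and -0.26 in the combined library. Over the 16 body and platform loci it was 0.30, 0.60 and -0.19. Between the blocks these medians differed by less than 0.1. In the DiBP library 6 head loci and 8 body and platform loci were at least 1.5-fold higher, beside 15.7% of all loci and 20.9% of those at 100 FPKM or more.

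Of the proteins of the body and platform, RPS26, which contacts the mRNA just upstream of the start codon, has 2 rows. The more abundant was at 329 FPKM in the control, 463 in the DBP, 649.8 in the DiBP and 323 in the combined library, and the less abundant at 281 FPKM in the control, 343 in the DBP, 516 in the DiBP and 225 in the combined library. Both were highest in the DiBP library, with log2 ratios of 0.98 and 0.88. Rows with one symbol may be near-identical copies between which the counting could split reads, so their separate levels are uncertain.

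The pair rps27.1 and rps27.2, which encode forms of a zinc-finger protein of the body, differed from each other. The first was at 323 FPKM in the control, 368 in the DBP, 405 in the DiBP and 303 in the combined library, with the usual order of libraries. The second was at 109 FPKM in the control, 109 in the DBP, 98.5 in the DiBP and 96.5 in the combined library, the narrowest range of any member. Its log2 ratios to the control were 0.00, -0.15 and -0.17, so it lacked the higher DiBP level of its partner (log2 ratio 0.33). How reads were shared between the pair was not given.

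RPS14, a platform protein whose loss of one copy underlies the anaemia of the human 5q- syndrome, was at 748 FPKM in the control, 1073 in the DBP, 1190.3 in the DiBP and 569 in the combined library. It was among the 4 highest ratios in the DBP library (0.52) and its combined level was the lowest of its values (log2 ratio -0.39). RPS9, whose protein is bound early to the rRNA, was at 209.6, 293, 390.0 and 174 FPKM in the order control, DBP, DiBP and combined. RPS7, which in mammals also binds the p53 regulator MDM2, was at 787, 1000.3, 1384 and 686 FPKM in that order. Both were more than 1.5-fold above the control in the DiBP library alone of the exposed ones, with log2 ratios of 0.89 and 0.81 there.

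The remaining 8 members all had the usual order of libraries, DiBP, DBP, control and combined. Near the decoding site and the mRNA entry, rps3, whose protein also serves DNA repair in mammals, was at 703, 739, 855 and 548 FPKM, listed again as control, DBP, DiBP and combined. RPS23, whose protein reaches into the decoding site, was at 846, 890.4, 1007 and 741 FPKM, and RPS15, whose tail lies there too, at 914, 1176, 1228 and 763 FPKM. The head protein gene rps20 was at 968, 1045, 1159 and 809 FPKM. These 4 are abundant genes whose exposed libraries lay within 1.5-fold of the control, with DiBP log2 ratios from 0.25 (RPS23) to 0.43 (RPS15). Of the body and platform, RPS3A was at 372, 439, 486 and 306 FPKM, RPS13 at 383, 457, 553 and 354 FPKM and RPS21 at 288, 364, 375 and 229 FPKM. RPS15A was at 218, 269, 367 and 204 FPKM, and with a DiBP log2 ratio of 0.75 it was the one of these 8 past 1.5-fold. Their combined log2 ratios ran from -0.36 (rps3) to -0.10 (RPS15A).

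RPS6, the protein phosphorylated by the S6 kinases downstream of growth signals, was at 587 FPKM in the control, 564 in the DBP, 649 in the DiBP and 488 in the combined library. Its values lay close together, with log2 ratios of -0.06, 0.14 and -0.27, and the sign of the DiBP ratio changed with the scaling of the libraries. RPS24, the least abundant member, was at 77.4 FPKM in the control, 97.6 in the DBP, 125 in the DiBP and 70.7 in the combined library, but its row shares a locus with QRFPR, a peptide receptor gene, so that its level may be that of both.

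RPS2, a protein at the mRNA entry channel and the most abundant member by its mean, was at 1741 FPKM in the control, 1191 in the DBP, 1335 in the DiBP and 1141 in the combined library. The control stood above every exposed library, and the log2 ratios were -0.55, -0.38 and -0.61, the lowest of any member in each of these comparisons. RPS2 and RPS10 were the members highest in the control, as 31.8% of all loci tested were. A protein of the same subunit outside the list, the scaffold RACK1, was also highest in the control, at 1181, 878, 848 and 923 FPKM in the usual order.

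The other proteins of the small subunit, which the rule does not cover, were set beside the members. FAU, which encodes a ubiquitin-like protein fused to a ribosomal one, was at 235, 387, 526 and 259.9 FPKM in the order control, DBP, DiBP and combined. It was highest in the DiBP library. The paralog of the rps27 genes, rps27l, which is a p53 target in mammals, was at 63.9, 49.6, 75.1 and 44.8 FPKM and also highest with DiBP. RPSA2 was at 426, 466, 591 and 412 FPKM and RPS4Y2 at 329, 339, 441 and 274 FPKM, again highest in the DiBP library. Of all 7 loci on this list besides the last pair, 6 lay above the control in the DiBP library, 3 of them by at least 1.5-fold (15.7% of all loci).

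The DiBP and DBP libraries, exposed to isomers for the same 30 days, were then set side by side. Whether the doses matched is not known. Of 28 members 27 were higher with DiBP, against 41.6% of all loci and 378 of the 771 at 100 FPKM or more. The members had a median log2 ratio of 0.24, beside -0.08 for all loci. At least 1.5-fold higher were 2 members, RPS25 and the less abundant RPS26 row, against 9.06% of all loci. RPS25 had a log2 ratio of 0.68 and that RPS26 row 0.59. The exception was rps27.2, at -0.15. With 1 library each, no interval can be given for these differences.

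The 4 libraries form a square in which each compound is present with and without the other, and opposite sides of the square share no library. DBP without DiBP (DBP against control) gave a median of 0.32 over the members, and DBP with DiBP on both sides (combined against DiBP) gave -0.77. The first was above 0 and the second below 0 at 24 of 28 members, against 33.1% of all loci tested, whose medians were 0.01 and -0.01. The same signs were found at 34 of 46 large-subunit loci and 60 of 76 genes of other short proteins, both lists described below. They were also found at 55.4% of loci at 100 FPKM or more, so they were not particular to the small subunit. Over the members, DiBP without DBP gave a median of 0.58, and DiBP on top of DBP (combined against DBP) gave -0.50. This pair of signs was seen at 25 of 28 members and at 31.9% of all loci. It was also seen at 39 of 46 large-subunit loci, 62 of 76 short-protein genes and 55.1% of loci at 100 FPKM or more. Both pairs use the same 4 libraries. At the 22 members with the order DiBP, DBP, control, combined, both follow from that order, so these counts largely restate it.

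The step from the DiBP to the combined library was the widest of the 6. All 28 members were lower in the combined library (50.7% of all loci), 20 of them by at least 1.5-fold (15.4% of all loci) and 10 by at least 2-fold (5.97% of all loci). Of the 771 loci at 100 FPKM or more, 551 were lower, 213 by at least 1.5-fold and 78 by at least 2-fold. Among the members RPS25 and RPS29 had the lowest log2 ratios, -1.36 and -1.36, and rps27.2 the one nearest 0, at -0.03. From the DBP to the combined library 11 members were at least 1.5-fold lower (13.4% of all loci and 147 of those 771). The lowest members there were RPS28 (-0.92) and RPS14 (-0.91). RPS10 alone was higher in the combined than in the DBP library (log2 ratio 0.05).

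**Figure D3:**
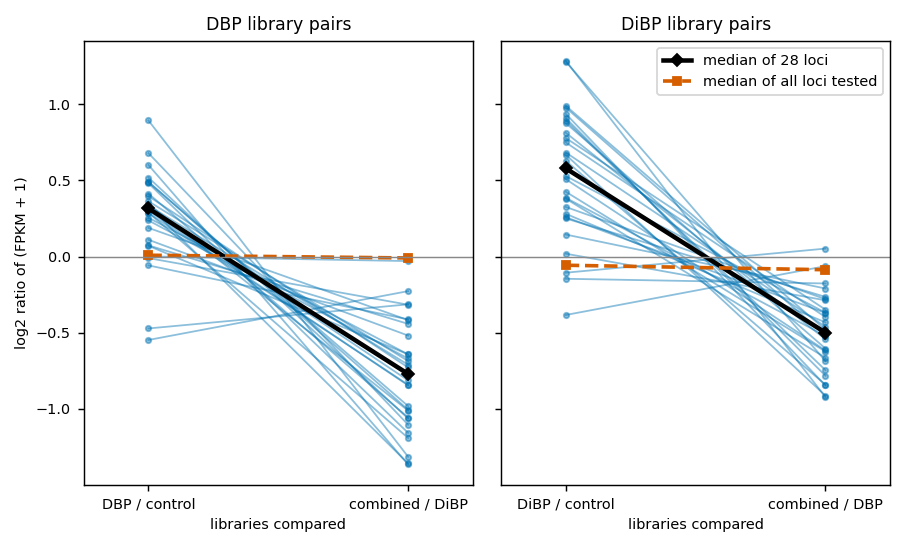
Log2 ratio of each of the 28 small-subunit loci for DBP without and with DiBP (left) and DiBP without and with DBP (right), joined by a line per locus. The thick line is the median of the members and the dashed line that of all 13859 loci tested. The members' medians pass from 0.32 to -0.77 on the left and from 0.58 to -0.50 on the right.

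Partner groups of the small subunit were read in the same way, and their counts in the DiBP library stand beside the 15.7% of all loci that were at least 1.5-fold above the control there and the 18.1% that were as far below. The 46 large-subunit loci had medians of 0.21, 0.32 and -0.26 in the DBP, DiBP and combined libraries against control, with the same signs as the small subunit. With DiBP 16 of them lay at least 1.5-fold above the control and 0 below. The 27 loci of the mitochondrial small subunit, which translates inside that organelle, had medians of 0.21, 0.15 and -0.15. Of these, 4 reached 1.5-fold above the control in the DiBP library, about the share of all loci, and 1 the same distance below.

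Factors that process 18S rRNA and assemble the small subunit were found at 51 loci. Their medians were 0.15 in the DBP, 0.21 in the DiBP and -0.02 in the combined library. The DiBP library had 12 of them at least 1.5-fold above the control (15.7% of all loci) and 3 below. The processome proteins utp3 and rrp7a were at 32.1, 51.9, 81.0 and 39.8 FPKM and at 155, 204, 356 and 182 FPKM in the usual order, both highest with DiBP. IMP4, another processome protein, was lowest in the combined library, at 67.3, 55.1, 85.7 and 27.6 FPKM.

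Initiation factors, which act at the start of translation, had medians near the control over 34 loci. Their medians were 0.11, 0.09 and -0.11, with 2 loci at least 1.5-fold higher and 1 lower in the DiBP library. EIF1 and EIF1B, which guard start codon choice, went opposite ways there: EIF1 was at 127, 91.1, 63.1 and 106 FPKM and EIF1B at 299.9, 500.5, 521 and 253 FPKM. RNA polymerase I and its factors, which make the rRNA, were listed together with MYC transcription factor genes. The 16 loci of that list had medians of 0.29, 0.19 and 0.02.

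Other mRNAs known in mammals to begin with the terminal pyrimidine run had medians close to 0 in the single-compound libraries. Their 22 loci had medians of -0.08, -0.06 and -0.22, with 4 of them at least 1.5-fold above the control in the DiBP library (15.7% of all loci) and 3 below. The elongation factor eef1a1l1 was at 1129, 706, 521 and 778 FPKM and highest in the control. The RNA-binding protein hnrnpa1a was at 35.7, 54.3, 86.9 and 45.1 FPKM and highest with DiBP. Whether these genes carry such a run in zebrafish was not examined.

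**Figure D4:**
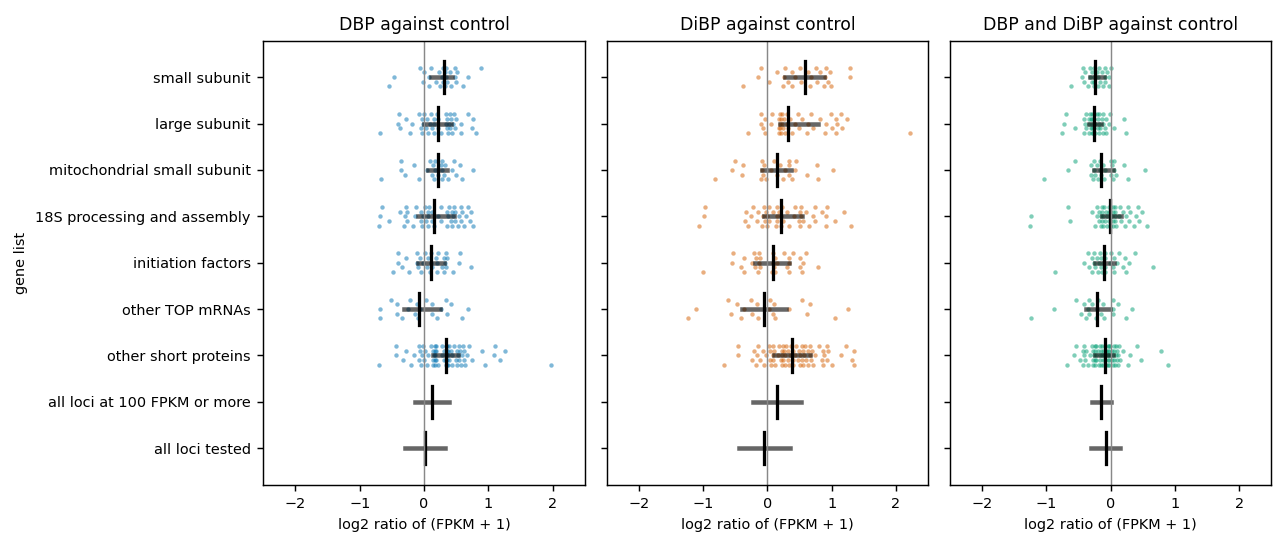
Log2 ratio to the control of every locus (points) in the small-subunit list and 6 related lists, in the DBP, DiBP and combined libraries; vertical ticks are medians and horizontal bars run from the first to the last quartile. The DiBP median of the small subunit is 0.58, that of other short proteins 0.38 and that of other terminal-pyrimidine mRNAs -0.06.

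Genes of other short proteins had medians above the control in the single-compound libraries, as the members had, and near the median of all loci in the combined one. Genes of 76 other short proteins (Sm and LSm proteins, small subunits of the respiratory chain and the like, a list made after the ribosomal values were known) had medians of 0.34, 0.38 and -0.09, beside 0.01, -0.06 and -0.08 for all loci. In the DiBP library 24 reached 1.5-fold above the control (15.7% of all loci) and 1 lay as far below. The 771 loci whose mean reached 100 FPKM, which include 27 of the 28 members (all but RPS24), had medians of 0.13, 0.14 and -0.15, and 20.9% of them were at least 1.5-fold higher with DiBP. The part of protein length and abundance in the members' differences was not tested.

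Facts of the libraries that touch these values are few. The summed FPKM over all rows was 534379, 572398, 598063 and 512635 in the usual order. Absolute depth is unknown, but the lowest values were taken to step by single reads. They gave a depth relative to the control of 1.05 with DBP, 0.913 with DiBP and 1.02 with both. This estimate was sought only near equal depth and takes the commonest ratio as that of equal read numbers. Oocyte markers, at 13 loci, summed to 8256, 9274, 8996 and 6395 FPKM and mark the tissue as ovary. Granulosa markers (8 loci) summed to 17.1, 34.0, 32.8 and 23.5 FPKM, with one FOXL2 row, inha and FSHR listed at 0 in the control. Leukocyte markers (7 loci) summed to 3.84, 10.3, 8.65 and 5.93, smooth muscle and vessel markers (14 loci) to 10.3, 43.8, 18.5 and 11.4, steroid-making cell markers (5 loci) to 45.4, 51.3, 50.2 and 55.8, fibroblast markers (6 loci) to 2.52, 4.61, 2.57 and 2.84 and erythrocyte markers (6 loci) to 0.846, 1.74, 2.304 and 0.503. In FPKM, all 7 marker sums were higher in both single-compound libraries than in the control. As shares of all FPKM they were all higher with DBP. With DiBP the oocyte, steroid-making cell and fibroblast shares were below the control. The shares of the other marker lists were above it. The oocyte gene h1m was at 531 FPKM in the control and 1889 FPKM in the DiBP library. Single loci did not all follow these sums. Of the 13 oocyte loci, 8 lay above the control and 5 below with DBP (median log2 ratio 0.06). With DiBP 6 of them lay above and 7 below (median -0.10), unlike most members. In the combined library 1 of them lay above the control and 12 below (median -0.44), as most members lay below. The oocyte and erythrocyte sums were lowest in the combined library. The erythrocyte sum had the order of libraries most members had, but 0 of its 6 loci had a mean of at least 1 FPKM. Among these, hbaa1 was at 0, 0.795, 1.66 and 0.063 FPKM in the usual order and made up most of the DiBP sum. With DiBP the alas2 and hbae1.1 rows also lay above the control, and both SLC4A1 rows and hbaa2 below it. The part of the marker genes in the members' values was not tested. In bulk ovary fewer cells of a type and less RNA per cell cannot be told apart.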

How the data were processed

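The deposited values are 1 table per library with 49610 rows. Neither the file headers nor the labels name their unit. They were taken as FPKM from the look of the deposited values, which is an inference. RNA came from frozen ovaries by RNeasy, and NEBNext Ultra libraries were sequenced paired-end on an Illumina HiSeq X instrument, per the labels' protocols. HISAT2, HTSeq 0.6.1 and the build GRCz10 appear in the submitters' processing notes. Settings, annotation and use of strand were not stated there, so overlapping genes cannot be told apart.

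Symbols were found for 26996 of 35066 Ensembl rows. Rows with identical values in all 4 libraries were collapsed, leaving 35253 loci above 0, of which 13859 had a mean of at least 1 FPKM. Differences are log2(FPKM + 1), unscaled, with 1.5-fold and 2-fold counts. No test, error or count model was used. Some genes are not reported here by name. Any other member could be named, with full values for the 4 highest and 4 lowest ratios to the control in each comparison, paralog pairs, rps27a, and the most and least abundant. A few others are given beside them, chosen after their values were seen, and related lists name up to 3 genes each by the size of their ratio. The members and lists were chosen with earlier results of these data known. The planned comparison by protein length was replaced by the short-protein list, since no protein table was used here, and the planned promoter motif count was not made. The ratio and count code was tested on simulated data. Tables were handled with pandas 2.3.3, numpy 2.4.6 and scipy 1.17.1 (rank correlation) under Python 3.11.15, and figures drawn with matplotlib 3.10.9.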

Additional observations from a re-analysis of the deposited data

How the results depend on the processing

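All 6 medians kept their sign under the 12 alternatives run for them (another pseudocount, 2 other filters, 3 scalings, exact symbols, no loci shared with another named gene, uncollapsed rows, the mean, and 2 choices added after the data were seen: RPSA2 and RPS4Y2 counted as members, and the paralog rows left out). The size depended on scaling. With equal summed FPKM the median was 0.42 for DiBP against control, -0.34 for combined against DBP and -0.55 for combined against DiBP, while the median of all loci moved to -0.19, 0.05 and 0.17. With that scaling 1 member was at least 1.5-fold higher and 1 lower in the DBP library, and 0 were lower in the combined library. Scaling without the 50 most abundant loci gave -0.13 for combined against control, -0.31 for combined against DBP and -0.59 for combined against DiBP, with 1 member at least 1.5-fold lower in the DBP and 0 in the combined library. With median-of-ratios scaling 0 members were at least 1.5-fold lower in the combined library. At 2-fold, 0 members were higher with DBP, 2 were higher with DiBP and 0 were lower with both. Ratios near 0 changed sign with scaling: 3 members against control in the DBP, 2 in the DiBP and 6 in the combined library, all of them within 1.5-fold. No paired analysis was possible because each group has 1 library and no test was run. Leaving out a replicate was not possible either, and absolute depth is unknown, so no counting error can be given.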

Other observations

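Genes named after small-subunit proteins but outside the subunit, picked after their values were seen, had no one order of the libraries in common. The S6 kinase genes, whose enzymes phosphorylate RPS6, were led by rps6kb1b at 38.7, 37.3, 38.0 and 39.8 FPKM in the order control, DBP, DiBP and combined. Its paralog rps6kb1a was at 2.83, 2.81, 2.41 and 3.00 FPKM. The kinase gene rps6kal was at 20.3, 17.6, 17.1 and 21.3 FPKM. RPS6KC1, which encodes a kinase-like protein, was highest in the control, at 20.2, 14.3, 9.91 and 15.9 FPKM. The RPS19-binding protein gene rps19bp1 was at 41.8, 51.7, 46.3 and 34.0 FPKM, highest in the DBP library and lowest in the combined one.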
